A study of Oryza sativa with 6 samples.

Results

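The genes described here belong to families linked to hemicellulose synthesis in the rice cell wall, and were chosen by name, not by shown function. They were taken as every gene with a symbol or synonym that starts with CSLA, CSLC, CSLD, CSLE, CSLF, CSLH, UAM or XOAT and a digit, without regard to case or to a leading Os. Of 37 such genes, 29 were read by at least 1 probe set assigned to a single gene, out of 17905 genes so read on the array. These 29 genes had 36 probe sets, the unit in which the array reports a transcript. The genes CSLA3, CSLA4, CSLE6, CSLF3, CSLF4, CSLF9, UAM2 and XOAT4 had no such probe set and were not analysed here.

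The study compared transcripts in young uppermost internodes of rice, the stem segments below the panicle. One group held 3 arrays of the coi1-13 mutant and the other 3 arrays of the wild type cultivar Nipponbare, all numbered as biological replicates in the labels. COI1 is an F-box protein of the jasmonate receptor. The labels give neither the lesion of coi1-13 nor the age of the plants, and they name no other treatment. They also do not say whether a replicate was 1 plant or a pool.

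Hemicelluloses are the non-cellulosic polysaccharides that coat and link cellulose microfibrils. Grass walls are rich in arabinoxylan, a xylose backbone with arabinose side groups and acetyl groups, and in mixed-linkage glucan. Most backbones are built in the Golgi by glycosyltransferases, among them the cellulose synthase-like (CSL) proteins, from nucleotide sugars. UDP-arabinopyranose mutases (UAM) supply the arabinofuranose form that is added to xylan, and XOAT proteins, members of the trichome birefringence-like family, add acetyl groups to xylan.

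The deposited values are log2 signals that share a common scale across arrays. Across the whole array, 34355 probe sets were bright enough to be tested with limma, and 35.9% passed at a Benjamini-Hochberg adjusted p under 0.05, the threshold used throughout. The share called was 61.3% among the brightest 8589 of those tested and 8.80% among the dimmest 8589. Stem transcripts were present in both groups: all 6 genes read from the stem list, namely the homeobox genes OSH1, OSH6 and OSH71 and the secondary wall cellulose synthase genes CESA4, CESA7 and CESA9, lay above the highest negative control on all 6 arrays, as did 8 of 9 anther genes and all 7 leaf photosynthesis genes.

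Most of the hemicellulose genes that differed were lower in coi1-13. No called member differed by as much as 2-fold. Only 5.45% of all tested probe sets were called and did, so their absence in a set this small says little. Of the 36 probe sets 30 were tested, and of these 15 fell, 2 rose and 13 did not pass. Over all tested probe sets 19.4% fell and 16.5% rose. Without the variance trend in limma, which lets the expected spread depend on brightness, 9 fell and 1 rose, against 15.2% and 13.9% of all. With 1 probe set a gene, the brightest, 14 of 25 tested genes fell and 2 rose, against 26.7% and 21.2% of all tested genes, or 47.9% called in either direction. The median log2 difference of the 30 probe sets was -0.17, against -0.01 over all tested probe sets. The falls ran from 1.12-fold for XOAT10 to 1.56-fold for a probe set of XOAT11. The genes that rose were CSLA5, 1.45-fold, and CSLH1, 1.12-fold.

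For the 15 probe sets that fell, the median distance from the wild type mean was -0.37, -0.39 and -0.37 on the coi1-13 arrays. On the wild type arrays it lay between -0.03 and 0.03. These probe sets were called on the same arrays, so their direction was set by that choice and adds no support. Single probe sets were less even, such as CSLC1 at 10.26, 10.47 and 10.16 in coi1-13, against a wild type mean of 10.57. The values of coi1-13 and wild type did not overlap in 16 of the 30 tested probe sets, with coi1-13 lower in 14 and higher in 2. Over all tested probe sets this held for 47.5%, with coi1-13 lower in 25.4% and higher in 22.1%. The members were bright, and 11 lay among the brightest 8589, where 10 fell and 1 rose. Among all tested probe sets of that brightness 34.2% fell and 27.0% rose. Of the 10 members in the next 8588 probe sets 2 fell and 1 rose, against 26.0% and 19.9% of all of that brightness. Of the 8 members in the 8589 below these 3 fell and none rose, against 13.9% and 13.8%, and the 1 member among the dimmest was not called.

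**Figure D1:**
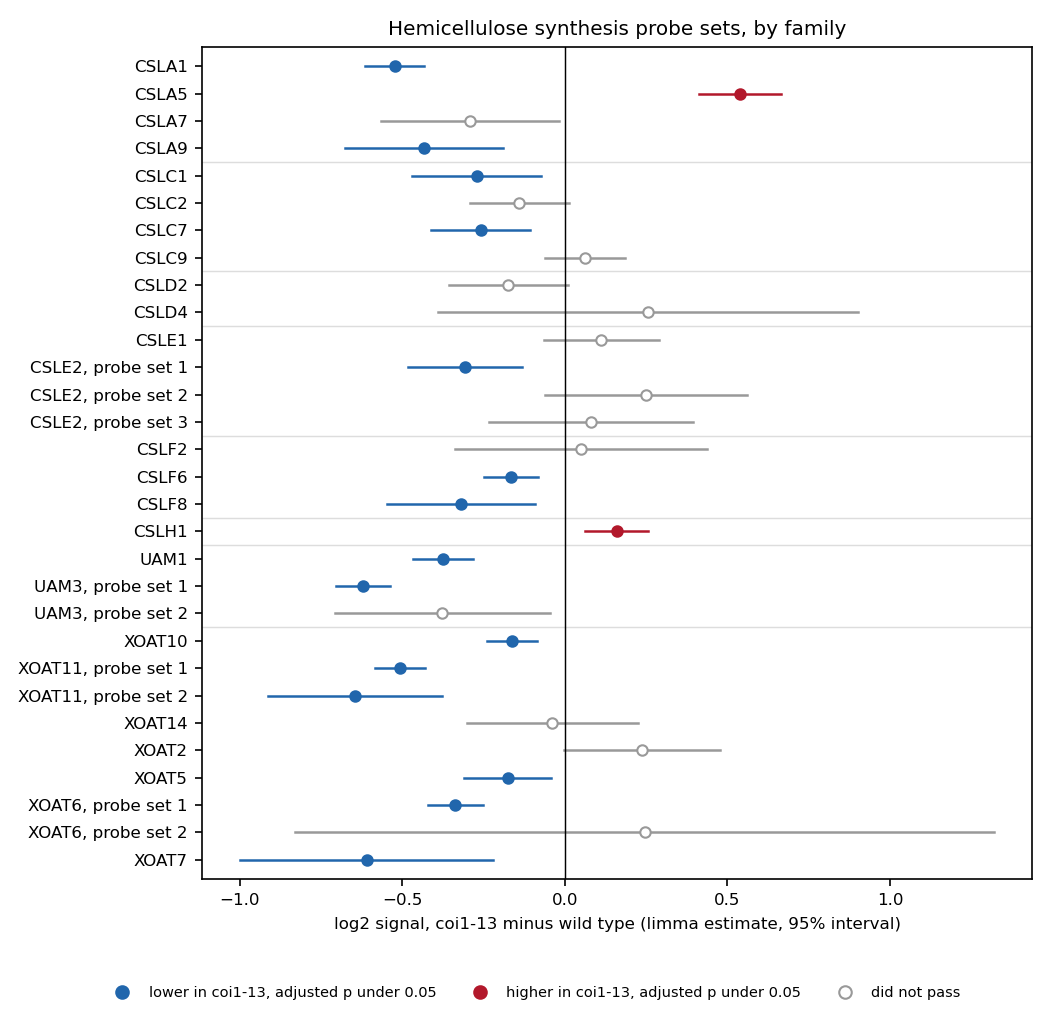
Difference in log2 signal, coi1-13 minus wild type, for the 30 tested probe sets, grouped by family, with 95% intervals from limma (n = 3 arrays each). Blue points were lower and red points higher in coi1-13, and open grey points did not pass. The 15 lower probe sets lie left of 0, and CSLA5 and CSLH1 alone are called on the right.

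The mutase genes held the largest fall among the brighter probe sets. UAM3, whose product is an active mutase in rice, had log2 signals of 11.86, 11.88 and 11.80 on the coi1-13 arrays, against 12.44, 12.46 and 12.50 on the wild type arrays. The groups lay well apart. The difference was -0.62 ± 0.04 (SE; limma adjusted p = 5.9e-07), a 1.54-fold fall. UAM1, the other active rice mutase gene, had log2 signals of 12.13, 12.11 and 12.13 in coi1-13, against 12.42, 12.52 and 12.55 in wild type. It fell 1.30-fold (-0.37 ± 0.04 SE; limma adjusted p = 4.9e-05), again with no overlap. Within the arrays UAM3 changed by -0.25 ± 0.04 (SE) relative to UAM1, with no overlap between groups. An exact two-sided permutation test gave a p of 0.1, the smallest that 3 arrays against 3 allow. This pair and the others compared below were chosen after their values were seen, so these comparisons add no support to the calls.

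A second and dimmer UAM3 probe set had log2 signals of 7.09, 7.25 and 7.38 in coi1-13, against 7.81, 7.65 and 7.38 in wild type. The highest coi1-13 array and the lowest wild type array were nearly level. The difference, -0.38 ± 0.15 (SE), did not pass (limma adjusted p = 0.074), but it did without wild type replicate 3, at -0.49 (limma adjusted p = 0.036). Its 95% interval, -0.71 to -0.05, spanned the value of the brighter probe set.

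Of the 7 xylan acetyltransferase genes read, 5 fell, none rose, and XOAT2 and XOAT14 did not pass. XOAT11 was read by a pair of probe sets and both fell. On the brighter one, log2 signals were 12.83, 12.78 and 12.78 in coi1-13, against 13.35, 13.30 and 13.27 in wild type (-0.51 ± 0.04 SE; limma adjusted p = 1.5e-06). That probe set is of the type whose probes can match transcripts of related genes, so part of its signal may come from other family members. On the dimmer one, with probes designed for a single transcript, signals were 8.34, 7.98 and 7.90 in coi1-13, against 8.80, 8.74 and 8.62 in wild type (-0.65 ± 0.12 SE; limma adjusted p = 0.0017). Neither probe set overlapped between groups.

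XOAT10 lies next to XOAT11 in the gene order of the RefSeq table. Its log2 signals were 12.02, 12.03 and 11.99 in coi1-13, against 12.18, 12.20 and 12.16 in wild type. The fall was small, 1.12-fold, and larger than the spread (-0.16 ± 0.03 SE; limma adjusted p = 0.0039). XOAT11 changed by -0.34 ± 0.03 (SE) relative to its neighbour on the same arrays, with no overlap (exact two-sided permutation p = 0.1). XOAT14, with 3 genes between it and XOAT11, differed by -0.04, with a 95% interval of -0.30 to 0.22.

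XOAT6 had log2 signals of 12.05, 12.03 and 12.12 in coi1-13, against 12.43, 12.38 and 12.39 in wild type, a 1.26-fold fall (-0.34 ± 0.04 SE; limma adjusted p = 5.8e-05). The groups did not overlap. Another XOAT6 probe set lay above the negative controls on only 2 coi1-13 arrays and 1 wild type array, and its values, between 4.50 and 6.07, did not resolve a difference (0.25, 95% interval -0.83 to 1.32). XOAT7 varied more between arrays and read 7.79, 7.68 and 7.89 in coi1-13, against 8.80, 7.99 and 8.39 in wild type. The groups were separate but the wild type values were spread widely, and the fall of -0.61 ± 0.17 (SE; limma adjusted p = 0.020) was lost without coi1-13 replicate 2 (limma adjusted p = 0.065), wild type replicate 1 (-0.41; limma adjusted p = 0.061) or wild type replicate 3 (limma adjusted p = 0.051), and without the variance trend (limma adjusted p = 0.091). XOAT5 fell 1.13-fold (-0.18; limma adjusted p = 0.044) with groups that overlapped, since coi1-13 replicate 2 at 11.14 lay above wild type replicate 2 at 11.12. That call was lost without coi1-13 replicate 1 or 3, or without wild type replicate 1 or 3, at limma adjusted p-values of 0.11, 0.13, 0.15 and 0.14, with no filter on low signal (limma adjusted p = 0.071) and without the variance trend (limma adjusted p = 0.15). XOAT2 stood at 8.55, 8.33 and 8.24 in coi1-13, against 8.10, 8.05 and 8.25 in wild type, and its difference of 0.24 did not pass (95% interval -0.0021 to 0.48; limma adjusted p = 0.117).

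**Figure D2:**
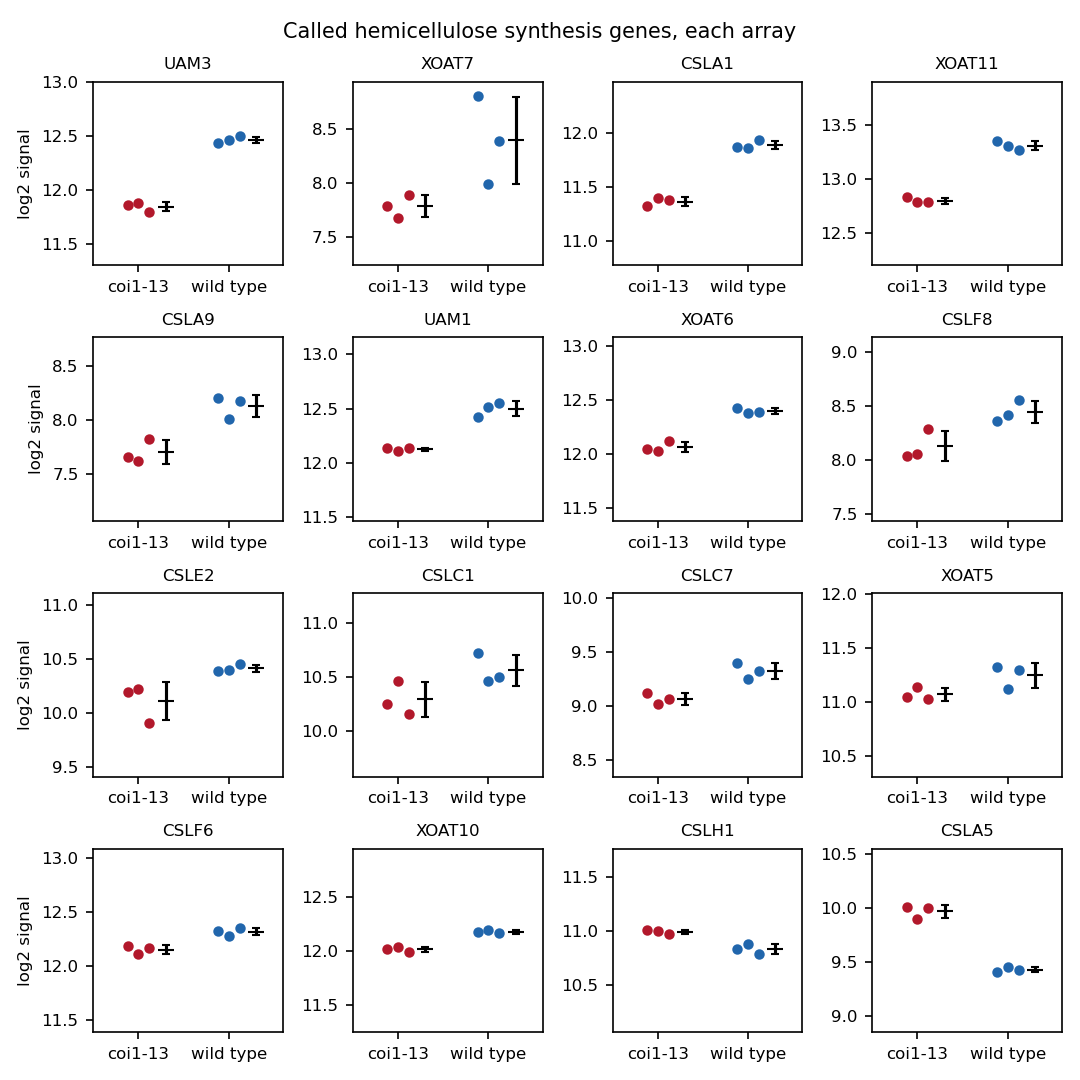
Log2 signal on each array for the 16 called genes, 1 probe set a gene, with coi1-13 (red) left of wild type (blue), and the mean with its SD (n = 3 each) in black. Each panel spans the same height on the log2 axis but has its own level. UAM3, CSLA1 and XOAT11 show the groups well apart, and XOAT7 the widest spread in wild type.

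The CSLA genes, whose products in other plants make the mannan and glucomannan backbone, went both ways. CSLA1 had log2 signals of 11.32, 11.40 and 11.37 in coi1-13, against 11.87, 11.85 and 11.93 in wild type. That is a 1.44-fold fall (-0.52 ± 0.04 SE; limma adjusted p = 3.8e-06), with the groups far apart for their spread. CSLA5 was the opposite, at 9.90 to 10.01 on the 3 arrays of coi1-13, against 9.41, 9.45 and 9.42 in wild type. It rose 1.45-fold (0.54 ± 0.06 SE; limma adjusted p = 3.3e-05) without overlap. Relative to CSLA1, CSLA5 changed by 1.06 ± 0.06 (SE) within the arrays (exact two-sided permutation p = 0.1).

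CSLA9 had log2 signals of 7.65, 7.61 and 7.82 in coi1-13, against 8.20, 8.01 and 8.18 in wild type, and fell 1.35-fold (-0.43 ± 0.11 SE; limma adjusted p = 0.010). All coi1-13 values lay below all wild type values. The RefSeq table gives CSLA9 as a synonym of the CSLA1 gene as well, and that gene is called CSLA1 throughout. CSLA7 spanned 9.32 to 9.64 in coi1-13 and 9.55 to 10.06 in wild type. Its difference of -0.29 did not pass (limma adjusted p = 0.093) but did without wild type replicate 1 (-0.41; limma adjusted p = 0.022).

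CSLC genes, whose Arabidopsis relatives make the glucan backbone of xyloglucan, fell or did not pass. CSLC7 had log2 signals of 9.12, 9.02 and 9.06 in coi1-13, against 9.40, 9.25 and 9.32 in wild type (-0.26 ± 0.07 SE; limma adjusted p = 0.013). The groups did not overlap, but the probes of this set can cross-hybridise, and the call was lost without wild type replicate 1 (-0.22; limma adjusted p = 0.053). CSLC1 fell 1.21-fold (-0.27; limma adjusted p = 0.036), in groups that overlapped: its highest coi1-13 array and its lowest wild type array both stood at 10.47. Its call was lost without coi1-13 replicate 1 or 3 or wild type replicate 1 or 3, at limma adjusted p-values of 0.097, 0.13, 0.13 and 0.051, with no filter on low signal (limma adjusted p = 0.059) and without the variance trend (limma adjusted p = 0.14). Leaving out coi1-13 replicate 3 or wild type replicate 1 brought its difference to -0.20 and -0.19. CSLC2 differed by -0.14 (95% interval -0.29 to 0.01) and CSLC9 by 0.06 (95% interval -0.06 to 0.18), and neither passed. CSLC3 was below the highest negative control on every array.

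Mixed-linkage glucan, the glucan typical of grass walls, is made by CSLF and CSLH proteins, with CSLF6 the main synthase in rice. CSLF6 had log2 signals of 12.19, 12.11 and 12.17 in coi1-13, against 12.33, 12.29 and 12.35 in wild type. The fall was 1.12-fold (-0.17 ± 0.04 SE; limma adjusted p = 0.0055) and the groups did not overlap, but the call was lost without the variance trend (limma adjusted p = 0.058). CSLH1 went the other way by as little, with 11.01, 11.00 and 10.97 in coi1-13, against 10.83, 10.88 and 10.79 in wild type (0.16 ± 0.04 SE; limma adjusted p = 0.015). The groups did not overlap, yet the call was lost without wild type replicate 3 (0.14; limma adjusted p = 0.060) under median centring (0.04; limma adjusted p = 0.67) and without the variance trend (limma adjusted p = 0.063). CSLH1 changed by 0.33 ± 0.05 (SE) relative to CSLF6 within the arrays (exact two-sided permutation p = 0.1). Centring an array cannot move this value. The pair was chosen after its values were seen, with CSLH1 called higher and CSLF6 lower, so it adds no support to the CSLH1 call.

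CSLF8 had log2 signals of 8.04, 8.06 and 8.29 in coi1-13, against 8.37, 8.42 and 8.56 in wild type (-0.32 ± 0.10 SE; limma adjusted p = 0.033). The groups were separate by a narrow margin, with coi1-13 replicate 3 closest to wild type. The call was lost without coi1-13 replicate 1 or 2, or without wild type replicate 2 or 3, at limma adjusted p-values of 0.10, 0.099, 0.063 and 0.12, under quantile normalization (limma adjusted p = 0.056) and without the variance trend (limma adjusted p = 0.061). CSLF2, which has 1 gene between it and CSLF8 in the RefSeq order, spanned 7.01 to 7.65 in coi1-13 and 7.23 to 7.47 in wild type (0.05, 95% interval -0.34 to 0.44; limma adjusted p = 0.86). CSLF7 and a further pair of CSLF6 probe sets were not above the highest negative control on any array.

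CSLD proteins are best known from tip-growing cells such as root hairs, and the product of CSLE genes is not settled. CSLD2 had log2 signals of 8.67, 8.65 and 8.87 in coi1-13, against 8.92, 8.93 and 8.86 in wild type. Its coi1-13 replicate 3 reached the wild type range, and the difference of -0.17 did not pass (95% interval -0.36 to 0.01; limma adjusted p = 0.13). Without that array it did (-0.24; limma adjusted p = 0.043). CSLD4, known from narrow-leaf rice mutants, spanned 6.04 to 6.73 in coi1-13 and 5.73 to 6.50 in wild type and did not pass (0.26, 95% interval -0.39 to 0.90, limma adjusted p = 0.55). The probes of the CSLD4 set can cross-hybridise. CSLD1, a root hair gene of rice, and CSLD5 were below the negative controls throughout.

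The CSLE2 probe sets differed in what they showed. The brightest had log2 signals of 10.19, 10.23 and 9.91 in coi1-13, against 10.39, 10.40 and 10.46 in wild type, and fell 1.24-fold (-0.31 ± 0.08 SE; limma adjusted p = 0.011) without overlap, a call lost without the variance trend (limma adjusted p = 0.075). The next read 8.58, 8.10 and 8.66 in coi1-13, against 8.29, 8.15 and 8.14 in wild type (0.25 ± 0.14 SE; limma adjusted p = 0.20). Its low array was coi1-13 replicate 2, and without it the probe set was called higher (0.42; limma adjusted p = 0.011). The dimmest read 8.23, 8.50 and 7.91 in coi1-13, against 8.24, 8.10 and 8.06 in wild type (0.08 ± 0.14 SE, limma adjusted p = 0.71). The probes of this dimmest set can cross-hybridise. The fall of the brightest probe set was thus not shared by the others. CSLE1 spanned 8.67 to 8.77 in coi1-13 and 8.53 to 8.67 in wild type, and did not pass (0.11, 95% interval -0.06 to 0.29; limma adjusted p = 0.32).

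**Figure D3:**
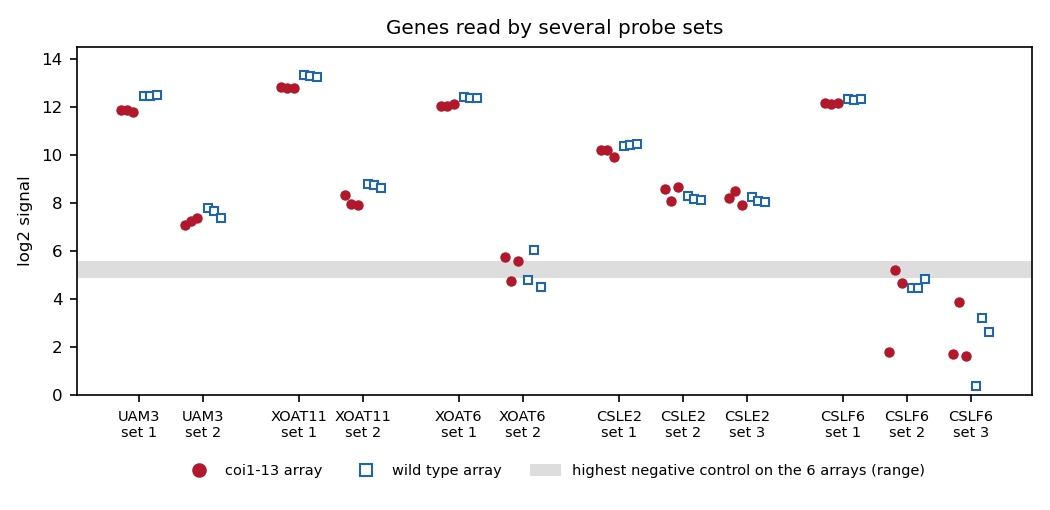
Log2 signal on each coi1-13 array (red) and each wild type array (blue squares) for the 5 genes read by several probe sets, ordered from bright to dim within a gene. The grey band spans the highest negative control of the 6 arrays, 4.93 to 5.56. Both XOAT11 probe sets lie lower in coi1-13, whereas the CSLE2 sets part ways and the dim CSLF6 sets lie in or below the band.

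Set side by side by family, the median log2 difference of tested probe sets was -0.38 for UAM (3 probe sets), -0.36 for CSLA (4), -0.20 for CSLC (4), -0.18 for XOAT (9) and -0.17 for CSLF (3). It was 0.04 for CSLD (2) and 0.10 for CSLE (4), medians that turn to -0.079 and -0.024 under median centring, and 0.16 for the lone CSLH1 probe set, which is 0.040 there. Of the tested genes, 2 of 2 fell in UAM, 5 of 7 in XOAT, 2 of 3 in CSLF, 2 of 4 in CSLC and 2 of 4 in CSLA, beside 1 of 2 in CSLE and none of 2 in CSLD. Over all tested genes 26.7% fell, and among the brightest 8589 probe sets 34.2% did. With 1 probe set a gene the median was -0.097 for CSLE, opposite in sign because CSLE2 has 3 of the 4 probe sets, and -0.50 for UAM, while the medians of the other families were the same. The families are small, and these medians were not tested against each other.

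The main falls kept their direction under quantile normalization. Median centring lowered every difference by the same amount, so it could not have reversed a fall. The medians it aligned were 5.62 to 5.75 in coi1-13 and 5.54 to 5.56 in wild type. They lay close to the highest negative controls, 5.26 to 5.56 in coi1-13 and 4.93 to 5.11 in wild type. Median centring brought the median difference of all tested probe sets to -0.13, and 19 of the 30 probe sets were then called lower and 1 higher, against 27.7% and 10.8% of all. CSLA7, CSLC2, CSLD2 and the dimmer UAM3 probe set were the additions. CSLA5 stayed higher, at 0.42 (limma adjusted p = 0.00057). Quantile normalization gave 14 lower and 2 higher, against 19.0% and 16.8% of all.

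**Figure D4:**
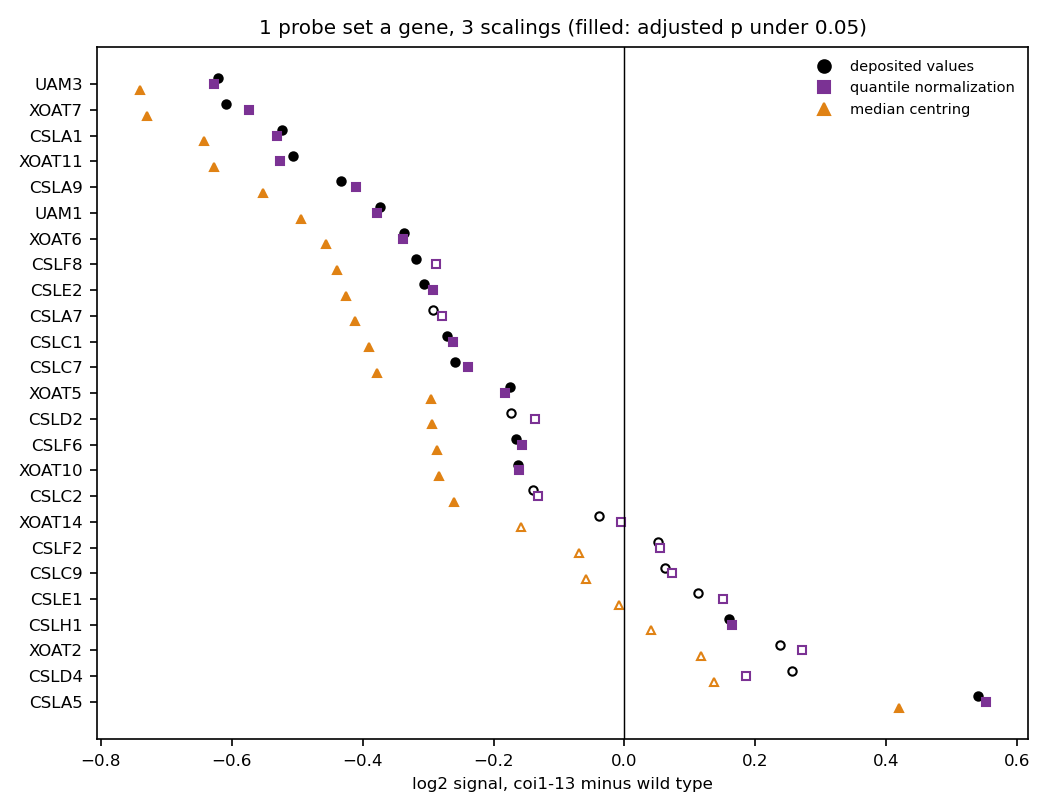
Difference in log2 signal, coi1-13 minus wild type, for the 25 tested genes, 1 probe set a gene, on the deposited values (black), after quantile normalization (purple) and after median centring (orange). Filled points passed at an adjusted p under 0.05. Median centring shifts every point left, and CSLH1 and CSLA5 stay right of 0, with CSLH1 no longer called.

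Other wall genes were taken from lists drawn up by symbol. Of 8 further xylan, xyloglucan and nucleotide sugar genes read, 3 fell, none rose and 5 did not pass, so 37.5% were called, against 47.9% of all tested genes. Their median difference was -0.22. IRX14, a xylan synthase component, fell with little spread within either group, at 12.05, 12.06 and 12.05 in coi1-13, against 12.25, 12.30 and 12.31 in wild type (limma adjusted p = 0.00041). The IRX14 probe set is of the type whose probes can match related genes. UGD4 and UGD5, which encode UDP-glucose dehydrogenases that feed UDP-xylose synthesis, fell by 0.23 and 0.34 on the log2 scale. UGD3 of the same family differed by -0.04 and did not pass (limma adjusted p = 0.66). The brightest UGD5 probe set, used here, can cross-hybridise. Another UGD5 probe set fell by 0.35 (limma adjusted p = 0.0080), and the dimmest differed by -0.12 without passing (limma adjusted p = 0.17). IRX9L, a relative of IRX9, differed by -0.07 on its brightest probe set, which can cross-hybridise, and by -0.26 on a dimmer one. Neither passed (limma adjusted p = 0.19 and 0.22). The xylan synthase gene IRX9 differed by -0.34 and did not pass (limma adjusted p = 0.071), with coi1-13 replicate 1 at 10.76 among the wild type values. Without that array it passed (-0.54; limma adjusted p = 0.00017). The xyloglucan xylosyltransferase gene XXT1 differed by -0.02, and the arabinosyltransferase gene XAT2 by -0.21 without passing (limma adjusted p = 0.069).

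A further 5 genes of the glycosyltransferase families GT43 and GT47, listed after the annotation was seen, went both ways. Of these 3 fell and 2 rose, against 26.7% and 21.2% of all tested genes. GT43A fell by 0.47 on the log2 scale, GT47D by 0.31 and GT43E by 0.27, of which the GT47D and GT43E calls were lost without the variance trend (limma adjusted p = 0.057 and 0.13). GT43G stood apart, with log2 signals of 9.72, 9.71 and 9.74 in coi1-13, against 8.84, 8.75 and 8.92 in wild type. It rose 1.85-fold (limma adjusted p = 2.6e-06), further than any hemicellulose gene above moved. GT43H rose 1.29-fold, a call lost under median centring (limma adjusted p = 0.12). The GT43E probe set that fell is of the type whose probes can match related genes. A dimmer GT43E probe set differed by -0.06 and did not pass (limma adjusted p = 0.48). The call of GT43E was lost without coi1-13 replicate 1 or 3 or wild type replicate 2 or 3, at limma adjusted p-values from 0.0955 to 0.124, and with no filter on low signal (limma adjusted p = 0.055), and its groups overlapped.

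All 8 cellulose synthase genes listed fell on their brightest probe set, both those of the primary wall and those of the secondary wall. These are bright probe sets, of a brightness at which 34.2% of all fell and 61.3% were called. CESA1, CESA3, CESA5, CESA6 and CESA8 fell by 0.18 to 0.46 on the log2 scale, and CESA4, CESA7 and CESA9 by 0.30 to 0.43. The median was -0.33 for the primary wall genes and -0.37 for those of the secondary wall. Dimmer CESA1 and CESA3 probe sets did not pass, and the CESA3 call was lost without the variance trend (limma adjusted p = 0.064).

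**Figure D5:**
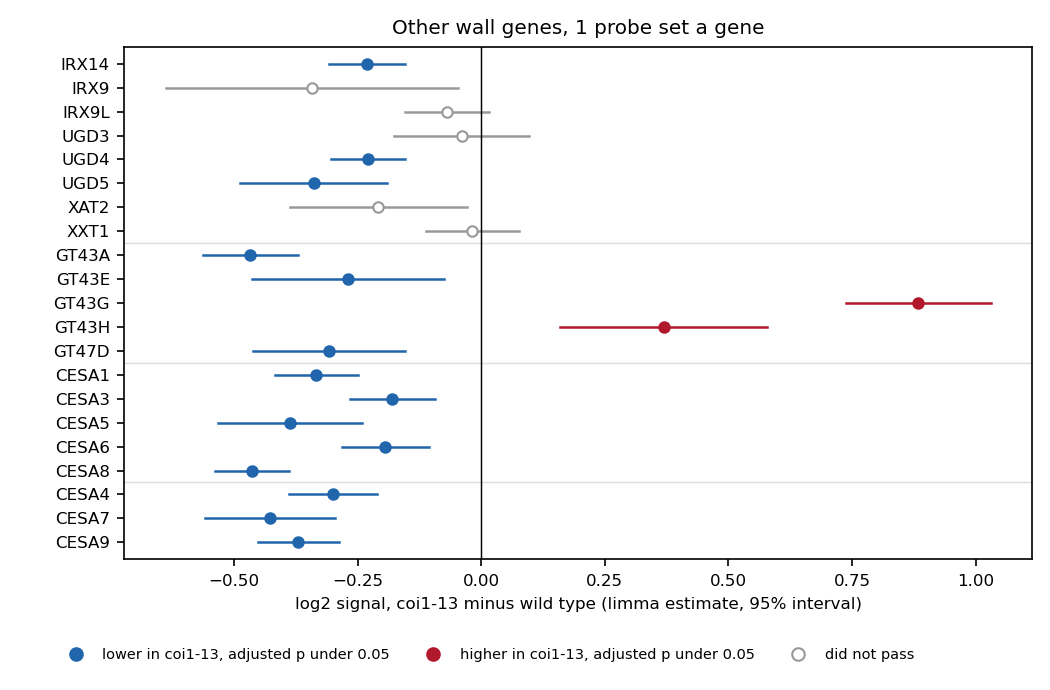
Difference in log2 signal, coi1-13 minus wild type, with 95% intervals from limma (n = 3 arrays each), for other xylan, xyloglucan and nucleotide sugar genes, GT43 and GT47 genes, and cellulose synthases of the primary and then the secondary wall, 1 probe set a gene. All 8 cellulose synthase genes lie left of 0, and GT43G lies furthest right.

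Markers of other tissue also differed between the groups on the same arrays. For comparison, 26.7% of all tested genes were lower and 21.2% higher, and 61.3% of the brightest 8589 probe sets were called. Of 9 anther and pollen genes 7 were lower, 1 was higher and 1 did not pass. Their summed linear signal ran from 42810 to 46244 on coi1-13 arrays and from 54434 to 55568 on wild type arrays. RTS and C6, the brightest, weigh most in these sums and each differed by only -0.11 on the log2 scale. The largest falls were 8.22-fold for CYP703A3, 3.69-fold for PTC1 and 2.28-fold for EAT1, and MADS3 was 1.21-fold higher. PTC1 was above the highest negative control on only 2 coi1-13 arrays. For 7 leaf photosynthesis genes, of which 4 were higher, 1 lower and 2 not called, the sums were 67118 to 69412 on coi1-13 arrays and 56609 to 58607 on wild type arrays. Of the 6 stem genes 4 were lower, namely OSH1 (not without the variance trend, limma adjusted p = 0.11), CESA4, CESA7 and CESA9, while OSH6 was 1.59-fold higher (limma adjusted p = 0.0059) and OSH71 1.43-fold higher (limma adjusted p = 0.00074). The 6 summed to 21404 to 22700 on coi1-13 arrays and 26343 to 27889 on wild type arrays, sums in which the bright CESA genes weigh most. None of these markers was at 0 on any array. Their part in the differences of the hemicellulose genes was not tested, and fewer cells of a type cannot be told apart from less RNA per cell in whole internodes.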

How the data were processed

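RNA from 6 internode samples was hybridised to Affymetrix rice arrays, per the labels. The authors deposited log2 signals of 57381 probe sets, made with GCOS 1.4 per the submitters' processing notes. On the linear scale the mean of each array, with 2% trimmed off both ends, was 500.07. The number of arrays limits the precision.

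Probe sets were named through the platform annotation, updated by gene ID from RefSeq (assembly ASM3414082v1), which was used for names and gene order only. Of 57258 probe sets that were not controls, 22436 had 1 gene, 95 several and 34727 none. All 37 genes matched by synonym. The contrast was fitted with limma 3.58.1 (R 4.3.3; lmFit, eBayes with trend, no block) on the 60% of probe sets with the highest means, at least 4.37, and p-values were adjusted over all 34355. The code was tested on simulated data. Background was the highest of 33 negative controls on each array. The brightest probe set stood for a gene. Differences between paired genes were compared with exact permutation tests (SciPy 1.17.1). The 4 pairs were chosen after their values were seen, and p stays 0.1 when adjusted over them.

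Values are given array by array for UAM probe sets, called probe sets without overlap, genes whose probe sets disagree, and the brightest of any other family. XOAT2 and genes outside the families were chosen for this after their values were seen. The members and lists were chosen with earlier results of these data known. Of the symbols listed for other hemicellulose genes 41 matched no probe set, and RGP1, RGP2 and RMD1 were dropped because the table gives those symbols to other genes.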

Additional observations from a re-analysis of the deposited data

How the results depend on the processing

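Of the 15 lower calls 8 held under every alternative tried (another filter or none, 2 other scalings, no variance trend, the replicate block, and each array left out), namely those of CSLA1, CSLA9, UAM1, the brighter UAM3 and XOAT6 probe sets, XOAT10 and both XOAT11 probe sets, and of the 2 higher calls that of CSLA5 did. Without the variance trend 9 probe sets and 8 genes were lower and 1 was higher, against 15.2% and 13.9% of all tested probe sets. CSLC1, CSLE2, CSLF6, CSLF8, CSLH1, XOAT5 and XOAT7 then lost the call, and the cause was not tested. Under median centring 3721 of all tested probe sets were higher, against 5679, and 1 hemicellulose gene was higher. That setting gave family medians of -0.48 for CSLA, -0.32 for CSLC, -0.079 for CSLD, -0.024 for CSLE, -0.29 for CSLF, 0.040 for CSLH, -0.50 for UAM and -0.30 for XOAT. With no filter, which adds 3 CSLF probe sets below the highest negative control, the CSLF median was -0.058. The CSLD median, over 2 probe sets, was -0.17 in the upper 40% by mean signal, which keeps only CSLD2. With 1 array left out, between 12 and 14 probe sets (10 to 13 genes) were lower and between 1 and 3 probe sets (1 to 2 genes) higher. The single higher probe set was without wild type replicate 3. Of all tested probe sets 16.4% to 17.8% were lower and 14.3% to 15.4% higher with 1 array left out. The family medians then ran from -0.43 to -0.28 for CSLA, -0.22 to -0.10 for CSLC, -0.056 to 0.17 for CSLD, 0.033 (without coi1-13 replicate 2) to 0.14 for CSLE and -0.49 to -0.36 for UAM. The CSLC value of -0.10 arose without wild type replicate 3, where the dim CSLC3 probe set also entered, so it was taken over 5 probe sets, not 4. The CSLD median was negative without coi1-13 replicate 1 and without wild type replicate 3. With no filter on low signal CSLC1 and XOAT5 lost the call, and 13 probe sets were lower, against 10.9% of all. More probe sets were then both fitted and adjusted over, and the cause of the loss was not tested. Same-numbered arrays did not deviate together (correlations of their deviations -0.0029, 0.0011 and 0.00042), so the numbers were not taken as pairs. With the replicate number as a block, 15 probe sets were lower and 2 higher as before, with CSLA7 (adjusted p = 0.033) gained and XOAT5 (adjusted p = 0.068) lost; the block moved no count by over 1.5 times. Of the 6 probe sets not tested, values lay between 0.00 and 5.36, where signals near the negative controls resolve no difference.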
